A study of Homo sapiens with 6 samples.

Results

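S1a and S1b are separately isolated populations of seeder cells derived from MDA-MB-231, a triple-negative human breast cancer line whose cells look mesenchymal. Their gene expression was compared directly, using the 2 arrays of S1b and the 2 arrays of S1a, which are 4 of the 6 arrays in the series. The other 2 arrays measured the parental line, and their signals are given only beside those of the isolates. All populations were grown subconfluent in DMEM with 10% FBS, and none carries a labelled genetic change or treatment. The labels give no route of isolation. Each isolate is 1 population, and the labels call its arrays biological replicates without naming separate cultures. The p-values therefore measure the spread between these arrays, which may be technical, and not the spread among seeder populations.

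Seeder cells are cancer cells that leave a tumour, circulate and return to grow in an existing tumour. Entry into the circulation and regrowth draw on matrix proteases, adhesion molecules and secreted cytokines. Populations isolated separately from 1 heterogeneous line can share some traits and differ in others. The comparison of S1b with S1a describes such differences.

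All 4 isolate arrays had a mean signal of 500.2 units after trimming of the highest and lowest 2%, and their medians lay between 87.6 and 91.7 units. Across probe sets, log2 signals correlated at 0.971 within S1a and at 0.970 within S1b, against 0.966 to 0.970 between the isolates. Poly-A spike-in controls, which are added to the RNA before labelling, were lower in S1b, with mean log2 signals of 8.17 and 8.10 against 8.68 and 8.59 in S1a, and their part in the results was not tested. All 8 MDA-MB-231 line markers, such as VIM, CD44 and AXL, had signals above 51.6 units in an isolate, the bound below which a signal is treated here as dim. SPARC, listed among these markers, was above the bound in S1b only. It was dim in S1a and on both parental arrays (37.1 and 39.6 units), so here it did not mark the parental line. The summed signals of marker lists for cells of other tissues were low: 120 to 197 units for haematopoietic, 133 to 189 for endothelial, 180 to 312 for fibroblast and 112 to 150.0 for adipocyte markers, against 56134 to 65108 for the line markers. The 9 luminal and hormone receptor genes, which include the keratins KRT18 and KRT19, summed to 11169.8 to 12576 units. Dim on all 4 arrays were 3 of 6 haematopoietic markers, PTPRC among them, 2 of 5 endothelial, 6 of 8 fibroblast and 4 of 5 adipocyte markers, and 3 of 9 luminal and hormone receptor genes.

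Few genes separated the isolates. Of 11963 genes, each read through its brightest probe set, 98 passed the test (limma, Benjamini-Hochberg adjusted p under 0.05), which is 0.819%. Over probe sets, 133 of 19064 passed (0.698%). Of the 98 genes, 30 were higher in S1b (0.251%) and 68 were lower (0.568%). The median log2 difference, S1b minus S1a, was 0.59 among the higher genes, -0.72 among the lower genes and 0.01 over all genes. Only 4 higher and 15 lower genes differed by 2-fold or more on the fitted scale, log2(signal + 3.949), and the other 79 called differences were smaller. The counts of called members for each gene list are to be read against these shares. The count of calls rests on few arrays: without the trend of variance with signal no gene passed (1115 genes had an unadjusted limma p under 0.05, against 1712 with it). With probe sets below the 40th percentile of the mean signal over the 4 isolate arrays left out, 293 genes passed. Without S1a replicate 1 or 2, 5 genes passed in each case, and without S1b replicate 1 or 2, 6 genes passed in each case. IL13RA2 passed in all 4 of these fits, ENG, FGF13 and SPARC without either S1a array only, and S100A4, SSX1, STOM, STOML1 and TIMP3 without either S1b array only; all other calls named here were lost in each.

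**Figure D1:**
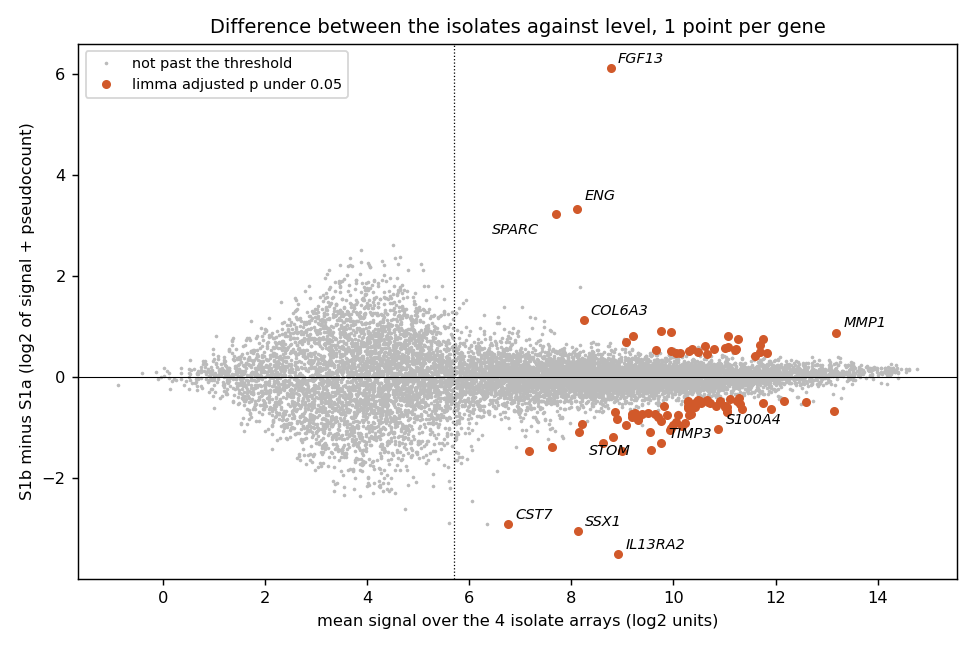
The vertical axis is the log2 difference, S1b minus S1a, and the horizontal axis the mean log2 signal over the 4 isolate arrays, with 1 point per gene. Orange points are the 98 genes past the threshold and the dotted line marks the bound of 51.6 signal units; FGF13, ENG and SPARC stand apart above, and IL13RA2, SSX1 and CST7 below.

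The 3 largest gains in S1b were a growth factor homologue, a co-receptor and a matrix glycoprotein, all with an S1a mean below the bound. FGF13, an intracellular member of the FGF family that binds sodium channels and microtubules, had signals of 19.2 and 2.79 units in S1a and 814 and 909.8 in S1b. Both S1b arrays were bright and all S1a and parental arrays dim, the parental ones at 35.0 and 1.49. The S1b mean was at least 16.7-fold higher than that of S1a (log2 difference 6.11 ± 0.53, SE, limma adjusted p = 0.00507). RNA was taken from whole cultures, so more expressing cells and more RNA per cell cannot be told apart. FGF13 was 1 of 39 measured FGF, PDGF and VEGF ligands and receptors, and the other called member of that list, PGF, is described with the losses.

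ENG encodes endoglin, a co-receptor for TGF-beta and BMP ligands. Its signals were 41.8 and 52.6 in S1a and 551 and 462 in S1b. The isolates did not overlap, and the parental arrays, at 17.5 and 18.1, were dimmer than both. The S1b mean was at least 9.82-fold higher (log2 difference 3.32 ± 0.22, limma adjusted p = 0.00276). A second, dimmer ENG probe set pointed the same way without passing the test (log2 difference 1.81, adjusted p = 0.305). Endoglin is also abundant in endothelial cells. Their 5 listed markers summed to 163 to 189 units in S1a and 133 to 137 in S1b. Only 1 of the 5 had an isolate mean above the bound, and a part of such cells in the ENG signal was not tested.

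SPARC encodes a secreted glycoprotein that binds collagen and modulates cell-matrix contact. It was at 35.0 and 39.0 in S1a and 394 and 367 in S1b, with the parental line at 37.1 and 39.6. S1a and parental cells were both dim, and both S1b arrays stood well above them. The S1b mean was at least 7.37-fold higher (log2 difference 3.23 ± 0.23, limma adjusted p = 0.00276), and a second probe set was also called (2.89, adjusted p = 0.0436). The 8 fibroblast markers summed to 241 to 312 units in S1a and 180 to 243 in S1b, and 6 of them were dim on all 4 arrays. A part of fibroblasts in the SPARC signal was not tested.

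Promoter sequences are shown for SPARC and ENG, whose means were above the bound in S1b alone, and for SSX1 and STOM, which were brighter in S1a. Each is the 250 bases before the annotated start in RefSeq (GRCh38.p14), written 5′ to 3′ on the strand of the gene, with matches to GGGCGG (a GC box, or CCGCCC on the other strand) and CCAAT (or ATTGG) in capitals.
SPARC, chr5:151686916-151687165, minus strand: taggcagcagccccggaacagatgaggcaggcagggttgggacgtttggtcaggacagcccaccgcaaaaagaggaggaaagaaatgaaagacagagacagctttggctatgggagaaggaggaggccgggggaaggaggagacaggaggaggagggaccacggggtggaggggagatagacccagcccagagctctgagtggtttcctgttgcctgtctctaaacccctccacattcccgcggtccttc
ENG, chr9:127854659-127854908, minus strand: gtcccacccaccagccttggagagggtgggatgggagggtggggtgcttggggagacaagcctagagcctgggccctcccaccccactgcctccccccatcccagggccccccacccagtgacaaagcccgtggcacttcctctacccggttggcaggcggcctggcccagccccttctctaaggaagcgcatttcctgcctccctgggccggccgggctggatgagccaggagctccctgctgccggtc
SSX1, chrX:48255142-48255391, plus strand: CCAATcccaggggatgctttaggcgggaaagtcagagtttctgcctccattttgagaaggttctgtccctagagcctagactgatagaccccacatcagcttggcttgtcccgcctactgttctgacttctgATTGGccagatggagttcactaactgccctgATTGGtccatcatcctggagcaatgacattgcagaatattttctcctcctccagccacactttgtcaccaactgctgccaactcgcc
STOM, chr9:121370251-121370500, minus strand: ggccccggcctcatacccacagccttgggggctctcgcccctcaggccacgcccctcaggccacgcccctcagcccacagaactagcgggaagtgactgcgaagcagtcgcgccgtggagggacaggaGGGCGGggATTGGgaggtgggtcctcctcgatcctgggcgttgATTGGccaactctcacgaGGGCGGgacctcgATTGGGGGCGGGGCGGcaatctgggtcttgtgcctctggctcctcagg
The SPARC and ENG windows held 0 matches to either motif and 7 CpG dinucleotides each, the SSX1 window 3 CCAAT matches and 3 CpG, and the STOM window 4 GC box matches, 3 CCAAT matches and 17 CpG. Of 35116 promoter windows of the same length, 42.6% held the GC box and 32% the CCAAT motif, and the median was 11 CpG. The letters describe these windows and were not tested against expression.

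The remaining gains were smaller and mostly in genes already bright in both populations. COL6A3, a chain of type VI collagen, was at 201 and 177 in S1a and 413 and 417 in S1b (log2 difference 1.12 ± 0.14, limma adjusted p = 0.0197). Its arrays did not overlap, and the parental arrays lay between the isolates, at 369 and 253. COL6A3 was the only one of 25 measured collagens and crosslinking enzymes to pass the test.

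MMP1, the interstitial collagenase, was among the brightest called genes. Its signals were 6667 and 6534 in S1a, 12016 and 12232 in S1b and 388 and 339 in the parental line. Both isolates stood far above the parental arrays, and S1b stood 1.84-fold above S1a (log2 difference 0.88 ± 0.07, limma adjusted p = 0.00446). Both S1b arrays exceeded both S1a arrays by far more than the replicates differed.

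Further gains lay in a transporter, a receptor and an actin-binding protein. SLC5A3, a sodium/myo-inositol transporter, went from 634 and 562 in S1a to 1082 and 1191 in S1b (log2 difference 0.92), with a second called probe set at 0.85. ADIPOR2, an adiponectin receptor, went from 728 and 668 to 1223 and 1366 (0.89). DBN1, the actin-binding protein drebrin, was at 1208 and 1269 in S1a and 1788 and 2018 in S1b (0.62, a second called probe set at 0.60), against 289 and 184 in the parental line. These 3 genes were higher on both S1b arrays than on either S1a array.

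ENAH, which promotes actin filament elongation, was at 401 and 415 in S1a and 651 and 684 in S1b (0.70, limma adjusted p = 0.0281). LBR, the lamin B receptor of the nuclear envelope, was at 2613 and 2583 in S1a and 3634 and 4454 in S1b (0.63), with the parental arrays at 4153 and 4288. TMEM184C had a log2 difference of 0.82. Probe sets disagreed for 3 further genes. PTP4A1, a phosphatase, differed by 0.82 on its brightest probe set but by 0.03 to 0.18 on the other bright probe sets. The splicing factors SRSF10 (0.76) and SRSF11 (0.76) each had another probe set of the opposite sign, at -0.35 and -0.07.

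**Figure D2:**
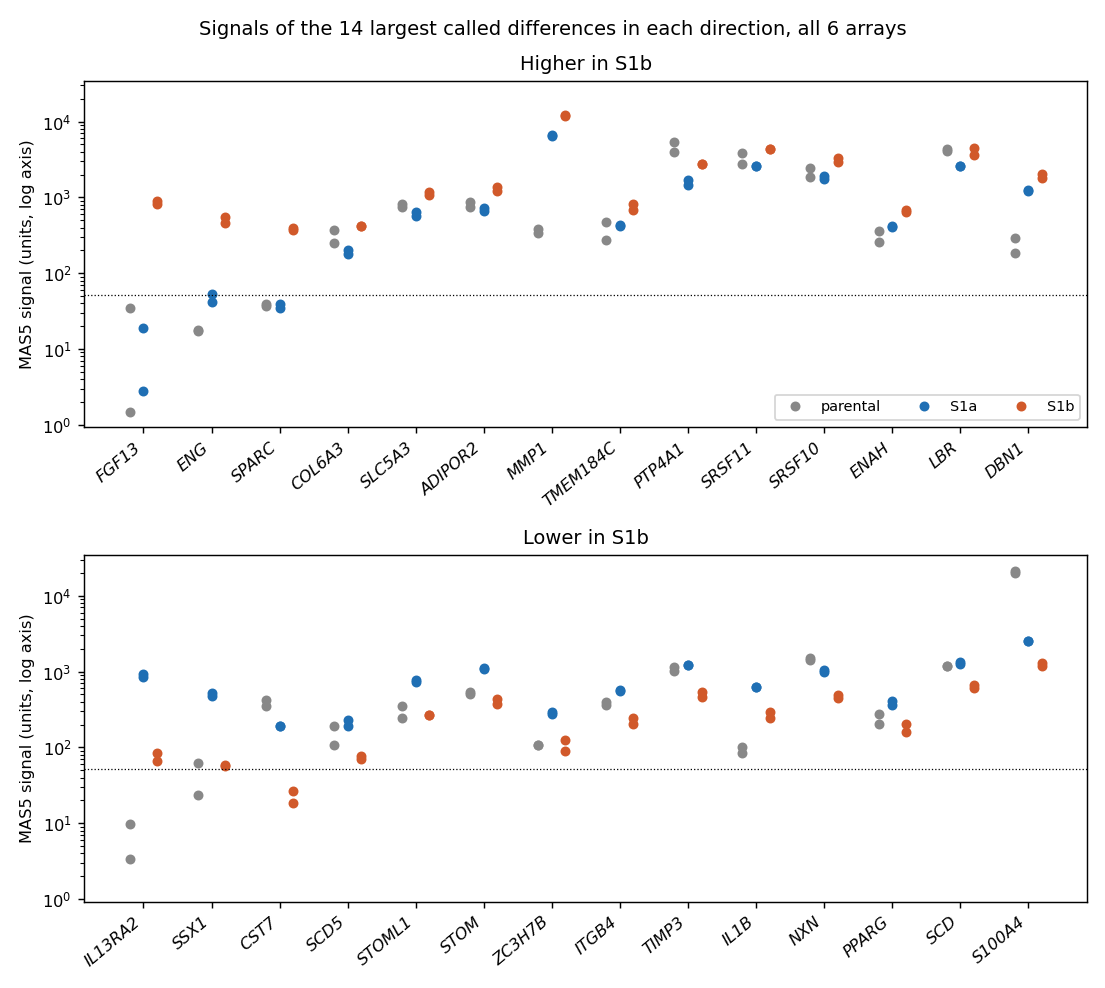
Signals on a log axis are plotted for the genes with the 14 largest called gains and the 14 largest called losses, with 1 point per array in parental, S1a and S1b cells. By the rule that chose them, the points of S1a and S1b do not overlap for any gene, and the parental points lie on either side.

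The largest loss was in a cytokine receptor. IL13RA2, a high-affinity receptor for interleukin 13 often called a decoy, had signals of 848 and 936 in S1a and 66.4 and 83.7 in S1b. The parental arrays were dimmer still, at 9.90 and 3.40, so both isolates were above the parental line and S1a far more so. The S1a mean was 11.9-fold that of S1b (log2 difference -3.51 ± 0.16, limma adjusted p = 0.000695). No other gene passed without each of the 4 isolate arrays in turn.

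SSX1, a cancer-testis antigen normally restricted to the germ line, was at 529 and 475 in S1a and 56.4 and 58.1 in S1b (log2 difference -3.05 ± 0.18, limma adjusted p = 0.00269). Parental signals of 23.6 and 61.9 were like those of S1b, and both S1a arrays stood apart. A second SSX1 probe set differed by -2.13 (adjusted p = 0.085). SSX1 was the only called gene of 17 measured cancer-testis antigens. In that list both S1b arrays were below both S1a arrays for 9 genes and above them for 4, against 21.3% and 23.1% of all genes, with a median of -0.49, and many members were dim: GAGE1 was at 11.1 and 18.6 in S1a and 0.767 and 2.17 in S1b.

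CST7 encodes cystatin F, an inhibitor of lysosomal cysteine proteases. It was at 194 and 193 in S1a, 26.6 and 18.7 in S1b and 355 and 417 in the parental line. S1b was dim where S1a and parental cells were not, at least 3.75-fold lower than S1a (log2 difference -2.91 ± 0.36, limma adjusted p = 0.0199). CST3, the secreted cystatin C, fell with it, from 2583 and 2590.5 to 1661 and 1581 (log2 difference -0.67, adjusted p = 0.0111). Both genes lie on the short arm of chromosome 20, described further on.

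A pair of related membrane proteins fell to a similar degree. STOM, the lipid raft protein stomatin, was at 1119 and 1074 in S1a and 370.4 and 435 in S1b (log2 difference -1.44 ± 0.10, limma adjusted p = 0.00276), with a second called probe set at -1.36. STOML1, a stomatin-like protein, was at 733 and 766 in S1a and 271 and 267 in S1b (-1.46 ± 0.10, adjusted p = 0.00276). Both S1a arrays were above both parental and both S1b arrays for each gene. Of 28 measured transporters and membrane scaffolds, 0 rose and 2 fell, STOM and the cystine transporter SLC7A11.

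S100A4, a calcium-binding protein linked to cell motility and metastasis, fell from 2553 and 2509.9 in S1a to 1289 and 1188 in S1b. Parental arrays were brighter than both isolates, at 21248 and 20123. The difference between the isolates, -1.03 ± 0.07 (limma adjusted p = 0.00276), was far larger than the spread within either. Of 17 measured S100 genes it was the only one called. S100A10, the annexin A2 partner, was at 9745 and 10282 in S1a and 8409 and 7561 in S1b without passing the test (adjusted p = 0.159).

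Losses also included adhesion, lipid and redox genes. ITGB4, the integrin beta 4 subunit that pairs with alpha 6 on laminin, fell from 569.6 and 546 to 244 and 204 (log2 difference -1.31, limma adjusted p = 0.0111), the only called gene of 29 integrins and laminins. NXN, a redox regulator of Wnt signalling, fell from 1035 and 982 to 490.0 and 451 (-1.09). PPARG, a nuclear receptor of lipid metabolism, fell from 409.7 and 363 to 161 and 200.4 (-1.08). The S1a arrays were above the S1b arrays for all 3 genes. ZC3H7B was called at -1.39, but its 4 other probe sets gave values from -0.32 to 0.73, 3 of them above 0.

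Among the proteases, the collagenase gain stood beside losses of an inhibitor and an aggrecanase. Of 30 measured metalloproteinases and TIMPs, 1 rose and 2 fell. TIMP3, a matrix-bound inhibitor of metalloproteinases, fell from 1235 and 1227 in S1a to 531 and 461 in S1b (log2 difference -1.31 ± 0.10, limma adjusted p = 0.00276). Its 3 other bright probe sets had the same sign, 2 of them called. ADAMTS1, a secreted protease that cleaves aggrecan and versican, fell from 1714 and 1695 to 1206 and 1243 (-0.48, adjusted p = 0.0371); the parental line was at 49.6 and 59.7, so both isolates were well above it. MMP14, the membrane-bound collagenase, was at 291 and 267 in S1a and 386 and 411 in S1b and did not pass (adjusted p = 0.144).

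Of 14 plasminogen system genes and serpins, PLAT, the tissue plasminogen activator, was the only one called, at 2400.2 and 2680.1 in S1a and 1704 and 1647 in S1b (-0.60, limma adjusted p = 0.0258). THBD, also in this list, was called lower on a dimmer probe set only (-0.97, limma adjusted p = 0.042). Its signals there were 327 and 378 in S1a and 172 and 182 in S1b. THBD lies on the short arm of chromosome 20. PLAU, the urokinase, was at 3469 and 3820.4 in S1a and 2875 and 2757 in S1b (adjusted p = 0.0972). In 7 of the 14 genes both S1b arrays were below both S1a arrays and in 3 above (50% and 21.4%, against 21.3% and 23.1% of all genes).

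The cytokine and receptor genes that passed the test were all lower in S1b. Of 34 measured cytokines and receptors, 0 rose and 3 fell. Besides IL13RA2 these were IL1B, an inflammatory cytokine, and IL11, a cytokine of the IL6 family. IL1B fell from 618 and 628 in S1a to 297 and 246 in S1b (log2 difference -1.19 ± 0.12, limma adjusted p = 0.0111), and a second probe set was called at -1.05. IL11 fell from 1385 and 1338 to 845 and 777 (-0.75 ± 0.08, adjusted p = 0.0118). Parental signals of both, 101 and 83.3 for IL1B and 454 and 573 for IL11, were below both isolates. In this list both S1b arrays were below both S1a arrays for 15 genes (44.1%) and above for 7 (20.6%), against 21.3% and 23.1% of all genes, with a median of -0.17. The share above was thus near that of all genes.

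IL6, CXCL1, CXCL8 and FSCN1, which the published study of tumour self-seeding examined, did not pass the test. IL6 was at 174 and 151 in S1a and 55.0 and 138 in S1b (log2 difference -0.86 ± 0.40, limma adjusted p = 0.43), with 1 S1b array close to S1a and the other below it. CXCL1, a neutrophil chemokine, was at 617 and 673 in S1a and 857 and 866 in S1b (0.42 ± 0.09, adjusted p = 0.102). CXCL8, the chemokine IL8, was at 1989 and 1918 in S1a and 1335 and 1507 in S1b (-0.46 ± 0.08, adjusted p = 0.0676). The S1b arrays lay above S1a for CXCL1 and below it for CXCL8, without passing the test. FSCN1, the actin-bundling protein fascin, was at 323 and 377 in S1a and 389.9 and 384 in S1b (0.15 ± 0.12, adjusted p = 0.684), and another bright probe set gave -0.51. None of 17 measured chemokines and chemokine receptors was called.

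In the NF-kappa B list, TNIP1, which restrains NF-kappa B signalling with TNFAIP3, was the only called gene of 16 (-0.46, limma adjusted p = 0.042). BCL2A1, a survival gene, was at 386 and 466 in S1a and 694 and 623 in S1b but did not pass (adjusted p = 0.085). None of 26 death receptor and BCL2 family genes was called.

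Subunits of the immunoproteasome, which trims peptides for presentation, were lower in S1b. Of 18 measured genes of MHC class I and peptide loading, 0 rose and 2 fell, and both S1b arrays were below both S1a arrays for 10 (55.6%) and above them for 0, where all genes gave 21.3% and 23.1%. The called genes were PSMB9, a subunit of the immunoproteasome, and PSMB10, another such subunit. PSMB9 fell from 842 and 777 in S1a to 489 and 423 in S1b (log2 difference -0.82 ± 0.11, limma adjusted p = 0.0249). PSMB10 fell from 738 and 772 to 479 and 445 (-0.70 ± 0.09, adjusted p = 0.0258). PSMB8, the third immunoproteasome subunit, was at 1029 and 1026 in S1a and 751 and 653 in S1b and did not pass (adjusted p = 0.0571). All 3 were brightest in the parental line.

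Of 42 measured interferon-stimulated genes, 1 fell and 0 rose, and both S1b arrays were below both S1a arrays for 22 (52.4%) and above for 5 (11.9%), against 21.3% and 23.1% of all genes, with a median of -0.21. ISG15, a ubiquitin-like modifier, fell from 2096 and 2247 to 1538 and 1386 (-0.57, limma adjusted p = 0.0346). EIF2AK2, the double-stranded RNA sensor PKR, had S1b signals of 919 and 916 above S1a signals of 606 and 674 without passing (adjusted p = 0.0599). None of 12 MHC class II genes was called, and CD74, the invariant chain, was at 597 and 659.6 in S1a and 433 and 441 in S1b.

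The genes of lipid synthesis that passed the test were all lower in S1b. Of 28 measured cholesterol and fatty acid synthesis genes, 2 fell and 0 rose, and 14 (50%) had both S1b arrays below both S1a arrays and 3 (10.7%) above, where all genes gave 21.3% and 23.1%. SCD, the stearoyl-CoA desaturase, fell from 1270.4 and 1349.6 in S1a to 662 and 604 in S1b (log2 difference -1.05 ± 0.09, limma adjusted p = 0.00446). Its other bright probe sets had the same sign, 1 of them called. Its paralogue SCD5 fell from 192 and 232 to 71.3 and 76.2 (-1.47, adjusted p = 0.0459). IDI1, an isomerase of the mevalonate pathway, fell from 2509 and 2419.6 to 1618 and 1703 (-0.57). INSIG1, which restrains sterol synthesis, was at 1609 and 1546 in S1a and 1144 and 1182 in S1b (adjusted p = 0.0514), and ABCA1, a cholesterol exporter, at 133 and 162 in S1a and 37.0 and 38.4 in S1b (adjusted p = 0.0648); neither passed.

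Amino acid response genes fell in part. Of 39 measured ATF4 and unfolded protein response genes, 3 fell and 0 rose. SLC7A11 and SLC3A2 encode both chains of the cystine/glutamate antiporter. SLC7A11 fell from 3149.7 and 3150.2 to 1993 and 2072 (-0.63 ± 0.07, limma adjusted p = 0.0111), with a second called probe set at -0.66. SLC3A2 fell from 2852 and 2844 to 2068 and 2184 (-0.42 ± 0.07, adjusted p = 0.0492). TRIB3, a pseudokinase induced by ATF4, fell from 819.9 and 847 to 530.2 and 477 (-0.72). TRIB3 also lies on the short arm of chromosome 20. In this list 16 genes (41.0%) had both S1b arrays below both S1a arrays and 4 (10.3%) above, against 21.3% and 23.1% of all genes, with a median of -0.12.

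Of the 39 lists, mitotic genes had the highest share of members brighter on both S1b arrays. Of 53 measured, 3 rose and 0 fell, and both S1b arrays were above both S1a arrays for 40 and below for 4, against 23.1% and 21.3% of all genes. The median log2 difference was 0.18, against 0.01 over all genes, and this median and the others quoted here kept their sign under quantile normalization and median centring unless a turn is named. KIF20A, a kinesin of cytokinesis, rose from 1784 and 1618 in S1a to 2703 and 2471 in S1b (0.60 ± 0.08, limma adjusted p = 0.0286). KIF2C, a microtubule-depolymerizing kinesin, rose from 3128 and 2912 to 4302 and 4153 (0.49 ± 0.07, adjusted p = 0.0371). SPC25, a kinetochore protein, rose from 917 and 938 to 1278 and 1314 (0.48 ± 0.07, adjusted p = 0.0425). NEK2, a centrosomal kinase, was at 981 and 951 in S1a and 1290.0 and 1286 in S1b without passing.

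Of 51 measured DNA replication genes, 1 fell and 0 rose, and both S1b arrays were below both S1a arrays for 24 (47.1%) and above for 6 (11.8%), against 21.3% and 23.1% of all genes, with a median of -0.06. GINS1, a subunit of the replicative helicase, fell from 1506 and 1407 to 1053 and 1004 (-0.50, limma adjusted p = 0.0429). PCNA, the sliding clamp, was at 7927 and 7821 in S1a and 5318 and 6070.2 in S1b (adjusted p = 0.0671), and CDC45, another helicase factor, at 990.2 and 1162 in S1a and 751 and 725 in S1b (adjusted p = 0.0709). GINS1 and PCNA are the 2 members of this list among the short-arm genes of chromosome 20.

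Of 36 MAP kinase feedback and immediate early genes, 2 rose and 1 fell, and both S1b arrays were above both S1a arrays for 15 (41.7%) and below for 5 (13.9%), against 23.1% and 21.3% of all genes; the median was 0.01. IER2, an immediate early nuclear protein, rose from 2722 and 2740.3 to 4076 and 3654 (0.50, limma adjusted p = 0.0425), and KLF4, a transcription factor, from 1058 and 1063 to 1587 and 1549 (0.56). DUSP1, a phosphatase that switches off MAP kinases, fell from 1972 and 1982 to 1336 and 1442 (-0.51). PGF, placental growth factor, fell from 939.9 and 1182 to 609 and 605 (-0.79), although another probe set gave 0.14. None of 12 EGF receptor family genes and ligands was called; EGFR was at 3596 and 3892 in S1a and 2872 and 3301 in S1b.

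In the TGF-beta and BMP pathway, 1 of 40 measured genes rose and 1 fell. Beside the gain of ENG, FST, the activin antagonist follistatin, fell from 2509 and 2724 to 1673 and 1579 (-0.68 ± 0.08, limma adjusted p = 0.0131). TGFBR2, the type II receptor, was at 1819.8 and 1857 in S1a and 2311 and 2235 in S1b without passing (adjusted p = 0.121). Of 33 matricellular and matrix glycoproteins, SPARC rose and EFEMP1, a fibulin, fell from 589 and 627 to 359 and 322 (-0.83, adjusted p = 0.0258). The median of the matricellular list, 0.06, turned to -0.03 under quantile normalization.

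Of 24 mesenchymal genes, SPARC rose and S100A4 fell. PLXNA1, a semaphorin receptor, fell from 1012 and 1215 to 612 and 606 (-0.86), the only one of 35 axon guidance genes, with another probe set at -0.02. EPAS1, the hypoxia factor HIF-2 alpha, fell from 729 and 695 to 363 and 369 (-0.95, limma adjusted p = 0.0111), the only one of 42 hypoxia and glycolysis genes. NPC1, a lysosomal cholesterol transporter, fell from 1425 and 1473 to 1064 and 1026 (-0.47, a second probe set at 0.03), and with CST3 it made 2 called of 23 lysosomal genes. Of 58 actin and motility genes only ENAH was called. CAV2, of the same list, gave -0.27 on its brightest probe set without passing. A dimmer CAV2 probe set was called lower (-0.75, limma adjusted p = 0.042). No gene was called among 20 keratin and desmosome, 20 epithelial junction, 36 Wnt and Notch, 20 p53 target, 9 hyaluronan or 58 respiratory chain genes. The share called over all genes was 0.819%. JAG1, of the Wnt and Notch list, was called lower on a dimmer probe set (-0.56, limma adjusted p = 0.0331). It lies on the short arm of chromosome 20. Of 52 cytosolic ribosomal protein genes 0 were called, and 22 had both S1b arrays above both S1a arrays with 1 below (42.3% and 1.92%, against 23.1% and 21.3% of all genes). Under quantile normalization this became 7 above and 11 below (13.5% and 21.2%), so that the excess above was not kept. Dimmer probe sets of RPL22, a ribosomal protein gene, were called lower in S1b, at -0.41 and -0.43.

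Lists of genes reported by others in metastatic derivatives of MDA-MB-231 were split. Over all genes, 0.251% were called higher and 0.568% lower. Of 14 measured bone-metastatic genes, 1 rose (MMP1) and 4 fell (ADAMTS1, IL11, FST and DUSP1), with a median of -0.47. Of 19 lung-metastatic genes, MMP1 and SPARC rose and IL13RA2 fell. Of 17 brain-metastatic genes, only MMP1 was called. Of 6 genes reported low in metastatic derivatives, 0 were called, which so few genes cannot set apart from the share over all genes.

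**Figure D3:**
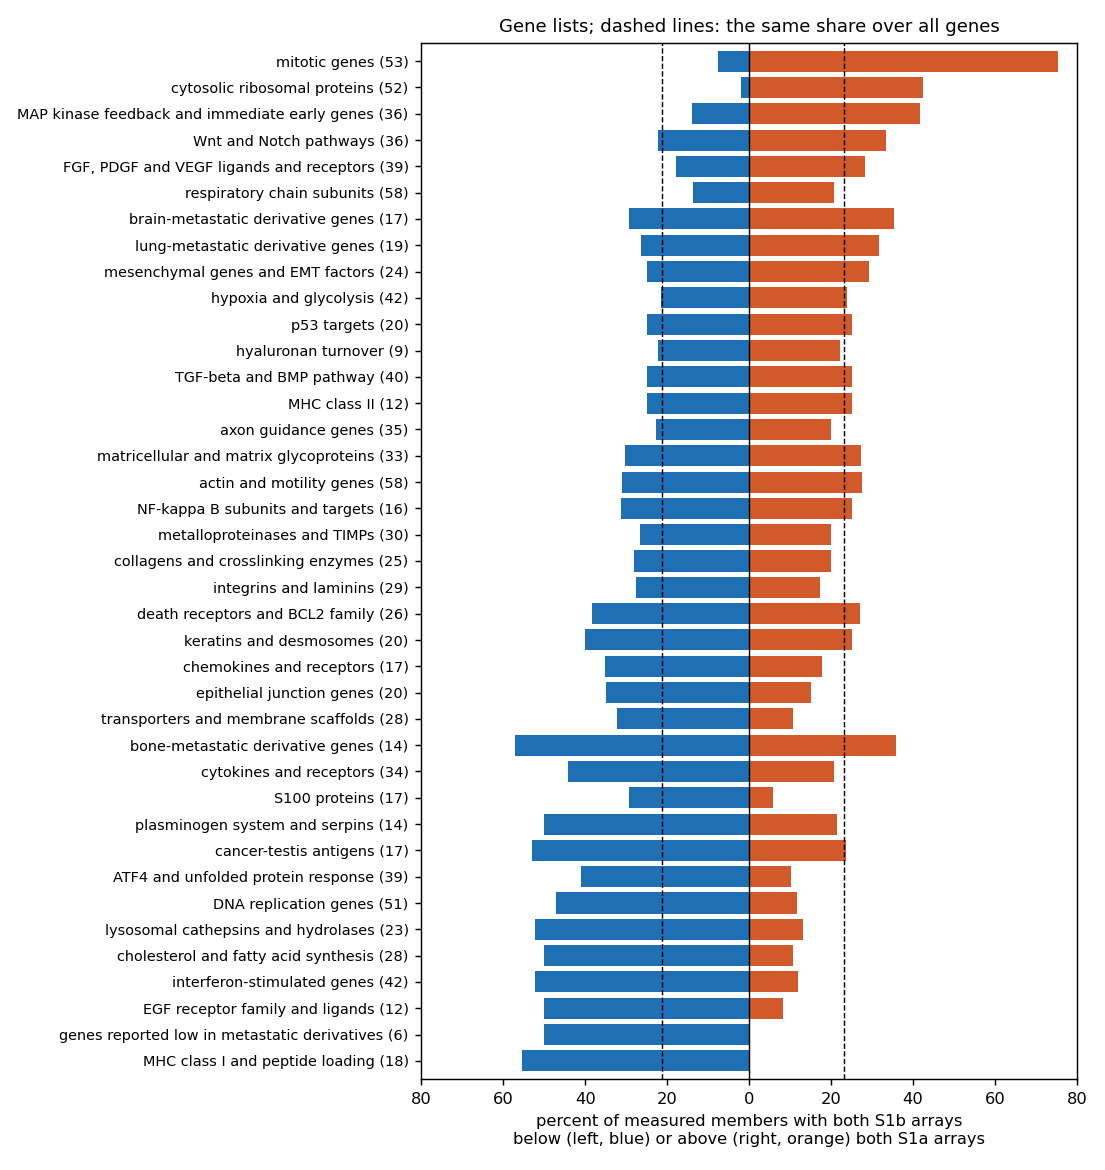
For each of 39 gene lists, bars give the percent of measured members with both S1b arrays above (right, orange) or below (left, blue) both S1a arrays; the number measured is in parentheses and dashed lines mark 23.1% and 21.3%, the same shares over all genes. Mitotic genes reach furthest right with 40 of 53. MHC class I genes and the 6 genes reported low in metastatic derivatives have none on the right. With median centring 1 MHC class I gene lies above. The ribosomal protein bars turn from 22 above and 1 below to 7 and 11 under quantile normalization.

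The parental line lay on either side. Of the 30 genes higher in S1b, the parental mean was nearer S1a for 25 (beyond S1a for 14, between the isolates for 11) and nearer S1b for 5. Of the 68 lower genes it was nearer S1a for 33 and nearer S1b for 35, and for 22 of these it lay beyond S1b. FGF13 and SPARC were gains over a dim parental line, and CST7 was a loss from a bright one. IL13RA2, SSX1 and IL11 were instead highest in S1a, with their lowest mean in the parental line.

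Neighbouring genes on the short arm of chromosome 20 were lower together. From SOX12 to ZNF337, 65 genes had a mean over the 4 isolate arrays above the bound, the filter meant here and below. Their median log2 difference was -0.41, with 59 lower in S1b. Both S1b arrays were below both S1a arrays for 51 of them (78.5%) and above for 4, against 23.9% and 26.3% of all genes above the bound. On the long arm, from ID1 to PCMTD2, the median of 148 genes was -0.0037, with 31 below (20.9%) and 35 above. The arms were set with these values known, and no test was made of the difference.

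Of the 65 short-arm genes, 10 (15.4%) were called, all lower, and of the 148 long-arm genes 0. Among all 7384 genes above the bound with a known position, 68 were called lower and 30 higher. Beyond CST7, CST3, TRIB3 and GINS1, the other 6 were named after their values were seen. PYGB, the brain form of glycogen phosphorylase, fell from 1272 and 1380.3 in S1a to 626 and 691 in S1b (log2 difference -1.01, limma adjusted p = 0.006). DSTN, the actin-severing protein destrin, fell from 11170.4 and 10903 to 6993 and 6963 (-0.66). The log2 difference was -0.91 for TMEM230, -0.58 for SNX5, a sorting nexin, -0.51 for NXT1, an mRNA export factor, and -0.43 for IDH3B, a mitochondrial isocitrate dehydrogenase subunit. The arrays of the isolates did not overlap for any of the 10.

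Against the parental line, which shares its arrays between both comparisons, the median of the 65 genes was 0.10 in S1a and -0.23 in S1b, and the long-arm medians were 0.10 and 0.10. Each pair of single arrays gave a short-arm median between -0.37 and -0.39, and the deposited, quantile-normalized and median-centred signals gave -0.41, -0.40 and -0.40. Over windows of 21 neighbouring genes on all chromosomes, the median ranged from -0.47 (chromosome 20, RNF24 to ZNF133, with 19 of 21 genes below) to 0.30. Among all genes above the bound, 23.9% were below.

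**Figure D4:**
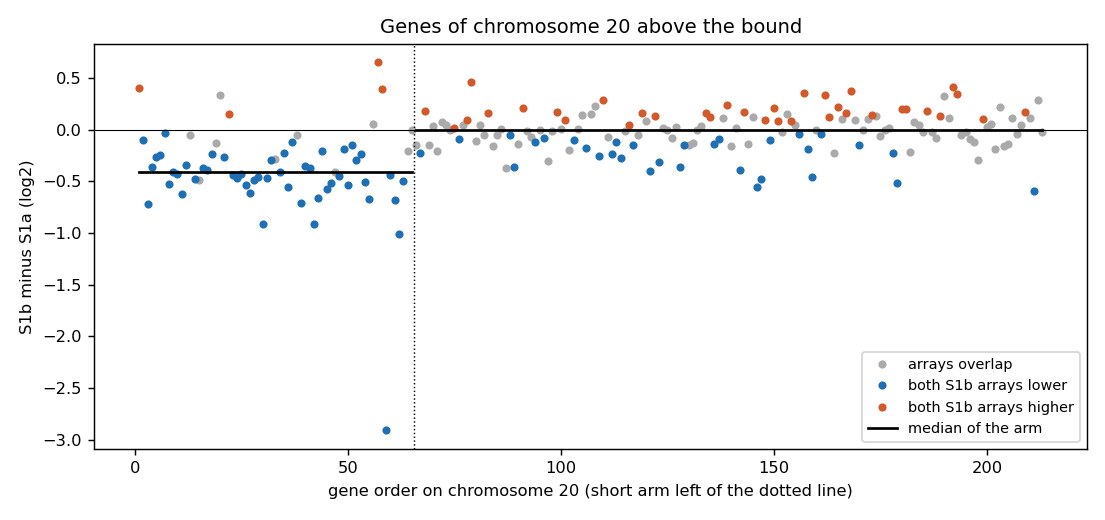
Genes of chromosome 20 above the bound are plotted in their order along the chromosome, with the log2 difference, S1b minus S1a, on the vertical axis. Of the 65 short-arm genes 59 lie below 0, with a median of -0.41, while the 148 long-arm genes scatter around 0.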

How the data were processed

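Total RNA of MDA-MB-231, S1a and S1b was hybridized to 6 Affymetrix arrays. The deposited values are linear intensity signals, 1 per probe set. The submitters' processing notes name MAS5 without a version. No value column was left unmapped. Arrays have no read depth, and their number, 2 per population, limits the precision.

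Of 22277 probe sets, 62 controls were left out; 19064 had 1 gene symbol, 1043 several and 2108 none. Symbols were updated through RefSeq (GRCh38.p14), which matched 19052. A gene was read through whichever probe set was brightest on average over the 4 isolate arrays.

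Signals were tested as log2(signal + 3.949), the 10th percentile, with limma 3.58.1 in R 4.3.3 (variance trend, 5.651 prior and 2 residual degrees of freedom) on the 4 isolate arrays, adjusted over all named probe sets; the threshold was 0.05. All adjusted p-values are limma's. Differences on this scale understate those of dim genes. Where 1 side lay below 51.6 units, the 40th percentile, a fold is the brighter mean over that bound. The procedure was also run on data simulated with the variances of this fit, which cannot test the variance trend.

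The text names the 14 largest called gains and losses without overlap, up to 4 members per list with the smallest p, and MMP1, FSCN1, CXCL1, CXCL8, IL6 and IL13RA2. The comparison, members and lists were chosen with earlier results of these data known. Alternatives changed the pseudocount, the filter, the scaling, the variance model, the arrays fitted, the replicate block and the choice of probe sets.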

Additional observations from a re-analysis of the deposited data

How the results depend on the processing

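Counts of calls moved most. Against 133 probe sets and 98 genes, limma called 55 probe sets and 44 genes with a pseudocount of 16 units, 39 and 32 with 32 units, 411 and 293 with probe sets below the 40th percentile left out, 416 and 304 below the 60th, 77 and 57 when all 6 arrays shared the spread, 36 and 33 with shared-probe suffixes left out, and 55 genes from the mean of a gene's probe sets. Without the variance trend it called 0 of either (1772 probe sets and 1115 genes at an unadjusted p under 0.05). Leaving out 1 array gave 5 to 7 probe sets and 5 to 6 genes; the lone array was assumed to vary like the other isolate's. Quantile normalization, median centring and a robust prior gave 140, 119 and 121 probe sets. With the replicate number as a block, 65 probe sets and 50 genes passed; same-numbered arrays did not deviate together (r = -0.02 across probe sets), so the numbers were not taken to pair the arrays.

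All 98 called genes kept their direction under each alternative that measured them, except 5 of 60 with suffixes left out and 1 with the mean of probe sets; all 98 were still called with the lowest 40% left out. Of 2382 recomputed values of named genes, 1915 kept direction and side of the threshold, 384 lost the call, 74 gained it and 9 turned sign: CTAG2 (-0.51), CXCL5 (-0.090), EGFR (0.68), NRG1 (0.45), SRSF11 (-0.074) and ZC3H7B (0.25) with suffixes left out, and FSCN1 (-0.18), NRG1 (0.044) and RBPJ (0.011) with the mean of probe sets. The cause was not tested. Signals near background limit dim genes, whose folds are bounds.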

Other observations

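Outside chromosome 20, the windows of 21 neighbouring genes with the most extreme medians were smaller in size. On chromosome 4, the window from TMEM184C to KLHL2 had the highest median log2 difference, 0.30. Both S1b arrays were above both S1a arrays for 16 of its 21 genes and below for 1. Among all genes above the bound, these shares were 26.3% and 23.9%. A further window on chromosome 4, from MFAP3L to FAT1, had a median of 0.21. On chromosome 14, the windows from CHD8 to AP1G2 and from AP4S1 to FKBP3 had medians of 0.23 and 0.21, with 15 and 13 genes above. Neither held a called gene, where all 7384 genes above the bound held 30 called higher and 68 called lower. The lowest medians outside chromosome 20 were -0.24 on chromosome 1 (NADK to ZBTB48) and -0.23 on chromosome 11 (CTTN to C2CD3). These windows were picked from all windows after their values were seen, and no test was made.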
